A study of Rattus norvegicus with 6 samples.

Results

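Olig1 and 7 Sox genes (Sox2, Sox4, Sox5, Sox6, Sox8, Sox10 and Sox11) encode transcription factors that set or hold the identity of the oligodendrocyte lineage. All 8 were measured, each by a single probe set, among the 13355 genes of the rat arrays. The members were taken by name, with the probe of highest mean where a gene had several. The arrays carried RNA from primary oligodendrocyte progenitor cells (OPCs), the dividing glia that become the myelin-forming oligodendrocytes of the brain. Cells came from rats of postnatal day 1 to 2, whose strain is not given in the labels, and recovered for 2 days in proliferation medium with PDGF and NT3. The 3 fibrinogen arrays are from cells given fibrinogen, the clotting protein of blood plasma, for 48 h in differentiation medium. The 3 control arrays are labelled unstimulated at the same 48 h, and the labels do not state their medium. No label says whether the 3 samples of a group came from separate cultures, so the spread between these samples may be technical. The p-values set a change against that spread, which limma moderates over all genes. The series title asks whether fibrinogen activates BMP signaling in OPCs and blocks remyelination, and the lineage transcription factors are part of the machinery that differentiation uses.

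OLIG1 is a basic helix-loop-helix (bHLH) protein of the oligodendrocyte lineage that binds the E-box, a short DNA word, and is needed for myelin gene expression and repair. SOX proteins bind a different short word through a shared HMG box and fall into groups of close relatives. SOX8 and SOX10 (group E) drive lineage identity and, with maturation, myelin genes. SOX5 and SOX6 (group D) hold progenitors back from maturing. SOX4 and SOX11 (group C) mark immature neural cells, and SOX2 (group B1) marks neural stem and progenitor cells.

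RefSeq promoter windows of build GRCr8 were listed for 3 of the 8 members, Sox2, Sox6 and Sox11. The stretches of Sox11 and Sox6 are printed to set a member whose groups lay well apart beside one whose groups nearly touched. Each is the 250 bases before the gene's start, 5′ to 3′ along the gene, from chr6:49738795-49739044 (minus strand) for Sox11 and chr1:179665372-179665621 (minus strand) for Sox6. Capitals mark the E-box CANNTG and the SOX words ACAAAG and ACAAT, searched on both strands, with no overlap between marked words.
Sox11: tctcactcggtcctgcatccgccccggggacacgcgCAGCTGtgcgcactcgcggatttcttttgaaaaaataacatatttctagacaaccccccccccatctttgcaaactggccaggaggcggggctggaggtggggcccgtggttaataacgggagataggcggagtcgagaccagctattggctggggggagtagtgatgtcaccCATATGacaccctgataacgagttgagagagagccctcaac
Sox6: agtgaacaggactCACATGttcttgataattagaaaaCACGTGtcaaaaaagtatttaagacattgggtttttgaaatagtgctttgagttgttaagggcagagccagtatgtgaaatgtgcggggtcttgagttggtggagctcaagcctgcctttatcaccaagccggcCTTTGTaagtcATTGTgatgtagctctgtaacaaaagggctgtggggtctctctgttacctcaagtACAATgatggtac
The Sox11 stretch held 2 E-boxes and neither SOX word, and the Sox2 stretch held 1 E-box and neither SOX word. The Sox6 stretch held 2 E-boxes, 1 ACAAAG and 2 ACAAT words. Of 33469 rat promoter stretches of that length, 65.5% held an E-box, 16.3% held ACAAAG and 30.0% held ACAAT. The words describe the letters in these windows and no binding was measured.

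The library-wide picture sets the scale for the members. Array medians lay between 5.78 and 5.84 on the log2 scale and the lowest correlation between 2 arrays of a group, across genes, was 0.991. Of the 13355 genes, 956 (7.16%) passed an adjusted p of 0.05 in limma, 4.16% higher and 3.00% lower with fibrinogen. That is 555 genes higher and 401 lower, a split that depends on scaling. It turned to 434 and 516 with each array centred on its median, and was nearly even, at 504 and 490, with quantile normalization repeated. The count fell to between 358 and 592 when any one array was left out. The labelled cell type was checked on 9 measured progenitor markers, none of which lay below the median probe in all control arrays, Pdgfra, Cspg4, Ptprz1 and Gpr17 among them. The same held for 9 of 9 astrocyte markers, 10 of 11 neuron markers and 10 of 11 myelin markers, so brightness does not set progenitors apart from those cell types. Of the other lists, 9 of 10 microglia markers and 3 of 3 measured endothelial markers lay below the median probe in all control arrays. So did 4 of 6 measured Schwann cell markers and 5 of 7 measured pericyte and fibroblast markers.

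Of the 8 members, Olig1 rose with fibrinogen and the 7 Sox genes did not pass the test. That is 12.5% of the members, against 7.16% of all genes. The 8 log2 fold changes ran from -0.28 (Sox4) to 0.46 (Olig1), with 6 positive and 2 negative and a median of 0.08, against a median of 0.003 over all genes. Without regard to sign, the median change was 0.14 for the members and 0.12 for all genes. The median standard error (SE) of a member's change was 0.08, and that over all genes 0.10. The control and fibrinogen arrays did not overlap for 6 members, that is 75% of them against 27.0% of all genes. At an unadjusted p under 0.05 in limma stood 4 members (Olig1, Sox11, Sox4 and Sox5), or 50% against 21.1% of all genes. Sox5 was at the edge, with an unadjusted limma p of 0.0495. The number of such members was 3 with each array centred on its median, and 2 without control 2 or without fibrinogen 2. For Sox6 and Sox8 the gap between the groups was 0.01, the rounding step of the file. None of the 8 lay below the median probe in all control arrays, while 5507 of the 13355 genes did. The shares over all genes thus include many dim probes, which the members do not. Of 9 progenitor and 9 astrocyte markers, none of them that dim, 8 and 5 did not overlap.

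**Figure D1:**
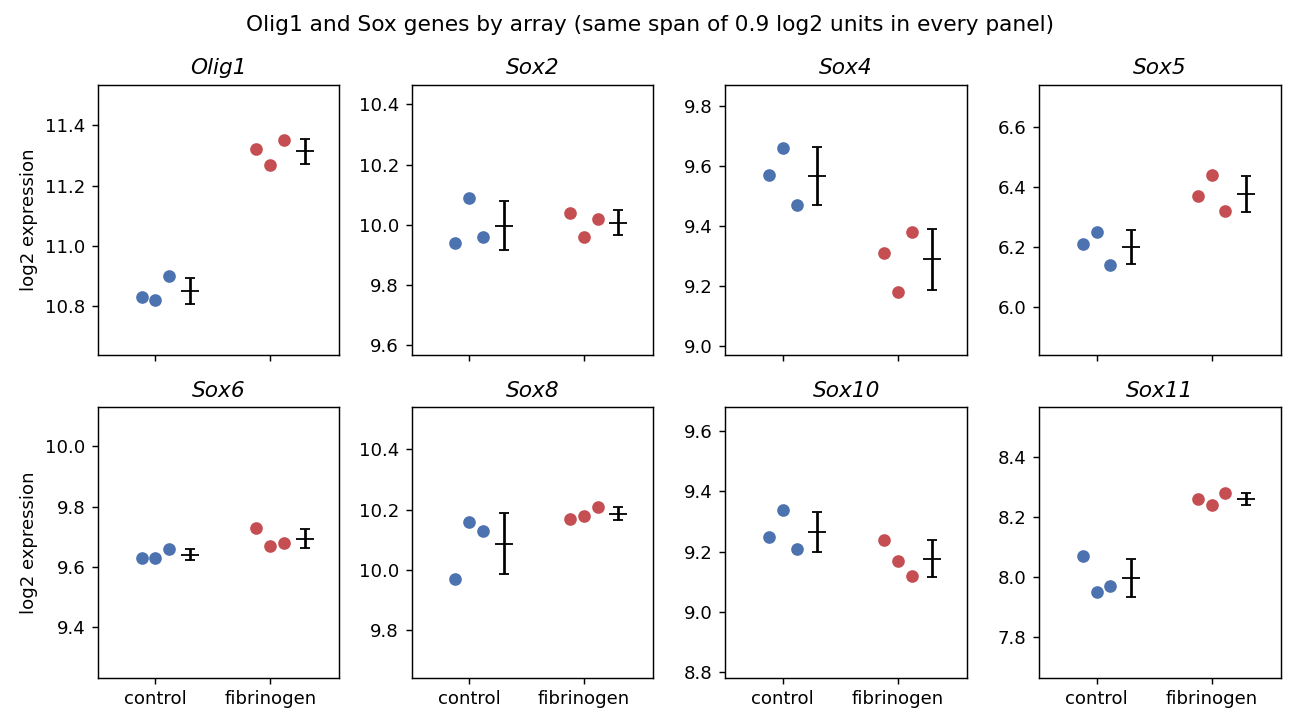
Log2 expression (vertical axis, same span in every panel) of the 8 members on the 3 control arrays (blue) and the 3 fibrinogen arrays (red), with mean and SD beside the points. Olig1 is separated by a gap of 0.37, Sox4 lies lower and Sox11 higher with fibrinogen, and Sox2 and Sox10 overlap.

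Olig1 (probe set 10750191), the bHLH member, was measured at a log2 expression of 10.83, 10.82 and 10.90 on the control arrays and at 11.32, 11.27 and 11.35 on the fibrinogen arrays. Every fibrinogen array was higher than every control array. The mean went from 10.85 ± 0.04 to 11.31 ± 0.04 (SD, n = 3), a 1.38-fold rise with a 95% interval of 1.23 to 1.55 (log2 fold change 0.46, SE 0.07, limma adjusted p = 0.0118). By size, 6.69% of all genes changed more, in either direction. The call was lost without fibrinogen 1 (adjusted p = 0.0560) and without fibrinogen 3 (adjusted p = 0.0542), while the log2 fold change stayed between 0.45 and 0.49 without any one array. Over all 14 alternatives the adjusted p ran from 4.82e-06 to 0.0587.

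Cell type markers moved between the groups too. The mean log2 level of the 9 progenitor markers was 9.35 to 9.44 in control and 9.83 to 9.85 in fibrinogen arrays, and 6 of the 9 rose. That of 9 astrocyte markers was 8.83 to 8.89 and 9.18 to 9.21, and 4 of the 9 rose (Gfap, Vim, Slc1a2 and Slc1a3). The other astrocyte markers did not pass. Aqp4, Gja1 and S100b were at log2 fold changes of -0.24, -0.10 and -0.09, and Aldoc and Fabp7 at 0.04 and 0.17. The mean log2 level of 11 myelin markers was 8.87 to 8.96 in control and 8.43 to 8.49 in fibrinogen arrays, and 7 of the 11 fell. In RNA from a whole culture, fewer cells of a type and less RNA per cell cannot be told apart, and the part of these shifts in the Olig1 rise was not tested.

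The genes with the array pattern most like that of Olig1 were Ctc1 and Egr3. Likeness was the root mean square distance over the 6 arrays after each gene was centred on its own mean, among 13347 other genes, and is a description without a test. The distance was 0.02 on the log2 scale for Ctc1, which encodes a telomere maintenance protein, and 0.03 for Egr3, which encodes a zinc-finger transcription factor induced by growth factors. Ctc1 stood at 7.46, 7.40 and 7.46 in control and 7.90, 7.86 and 7.93 in fibrinogen arrays. Among the members the Sox gene nearest to Olig1 was Sox11 (distance 0.11) and the farthest was Sox4 (0.38).

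Sox11 and Sox4, the group C pair, had changes of opposite sign, neither past the threshold. Sox11 (probe set 10889415) was at a log2 expression of 8.07, 7.95 and 7.97 in control and 8.26, 8.24 and 8.28 in fibrinogen arrays, so all fibrinogen arrays were higher. Its log2 fold change was 0.26 (SE 0.07, 95% interval 0.09 to 0.43), with an adjusted p of 0.0804 in limma. Sox4 (probe set 10794967) was at 9.57, 9.66 and 9.47 in control and 9.31, 9.18 and 9.38 in fibrinogen arrays, so all fibrinogen arrays were lower. Its log2 fold change was -0.28 (SE 0.09, 95% interval -0.49 to -0.07, adjusted p = 0.126 in limma). With a mean-variance trend and robust moderation in limma both passed, at adjusted p = 0.0278 for Sox11 and 0.0146 for Sox4. Sox11 also passed when the dimmest 25% of probes were left out (adjusted p = 0.0470). Over all alternatives the adjusted p ran from 0.0278 to 0.210 for Sox11 and from 0.0146 to 0.306 for Sox4.

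The difference between these relatives was measured within each array as the log2 value of Sox4 minus that of Sox11. It was 1.50, 1.71 and 1.50 on the control arrays and 1.05, 0.94 and 1.10 on the fibrinogen arrays. The groups did not overlap, with means of 1.57 ± 0.12 and 1.03 ± 0.08 (SD, n = 3). That had to follow from the values of the 2 genes, whose groups lay apart in opposite directions. The Sox4 change minus the Sox11 change was -0.54 (SE 0.08). Such differences were computed for 3 pairs of relatives, and a two-sided exact permutation test with 3 arrays against 3 cannot go below p = 0.1. The Sox4 and Sox11 pair had that smallest value (exact permutation p = 0.1, and 0.1 after adjustment over the 3 pairs). All 3 pairs had it, so the test does not set this pair apart and restates the values of its genes. Leaving out each array in turn gave -0.58 to -0.47. A difference between probe sets of 2 genes is read here for its shift between groups and not as a difference in their abundance.

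**Figure D2:**
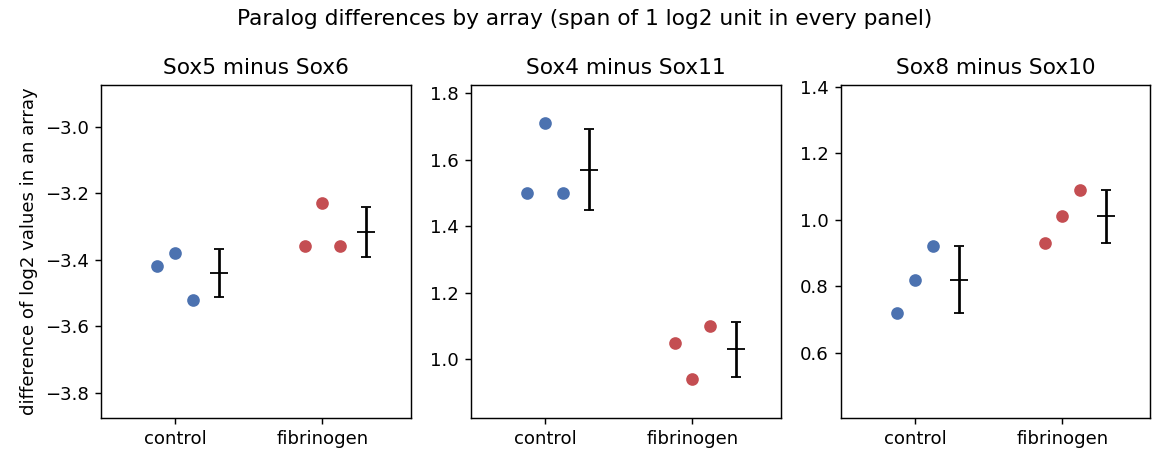
Difference of the log2 values of 2 related Sox genes within an array (vertical axis, same span in every panel) for the 3 control (blue) and 3 fibrinogen (red) arrays, with mean and SD. The Sox4 minus Sox11 difference differed by -0.54 between the groups, and the other pairs by 0.12 and 0.19.

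Sox5 and Sox6, the group D pair, had small positive changes that did not pass. Sox5 (probe set 10866738) was at a log2 expression of 6.21, 6.25 and 6.14 in control and 6.37, 6.44 and 6.32 in fibrinogen arrays, without overlap. Its log2 fold change was 0.18 (SE 0.07, 95% interval 0.0005 to 0.35), which did not pass (limma adjusted p = 0.236). Sox6 (probe set 10725060) was at 9.63, 9.63 and 9.66 in control and 9.73, 9.67 and 9.68 in fibrinogen arrays, with the lowest fibrinogen array 0.01 above the highest control array. Its log2 fold change was 0.05 (SE 0.07), and the 95% interval of its fold ratio was 0.929 to 1.16 (limma adjusted p = 0.722). The log2 fold change was 0.007 with each array centred on its median and 0.035 without fibrinogen 1, and did not pass there either. The Sox5 minus Sox6 difference was higher with fibrinogen by 0.12 (SE 0.06, exact permutation p = 0.1, the smallest possible), and by 0.08 to 0.15 with each array left out in turn.

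Sox8 and Sox10, the group E pair that drives the lineage program, did not pass either. Sox8 (probe set 10741459) was at a log2 expression of 9.97, 10.16 and 10.13 in control and 10.17, 10.18 and 10.21 in fibrinogen arrays. Control 1 was the low array, and the other controls lay close below the fibrinogen arrays. The log2 fold change of Sox8 was 0.10 (SE 0.08), with a 95% interval of its fold ratio of 0.941 to 1.22, and was 0.04 without control 1 (limma adjusted p = 0.822). Sox10 (probe set 10905378) was at 9.25, 9.34 and 9.21 in control and 9.24, 9.17 and 9.12 in fibrinogen arrays, which overlap. The log2 fold change of Sox10 was -0.09 (SE 0.08), and the 95% interval of its fold ratio was 0.829 to 1.06. The log2 fold change was -0.053 without control 2 and -0.14 with each array centred on its median, and did not pass there either. The Sox8 minus Sox10 difference was 0.72, 0.82 and 0.92 in control and 0.93, 1.01 and 1.09 in fibrinogen arrays. It was higher with fibrinogen by 0.19 (SE 0.07, exact permutation p = 0.1, the smallest possible). With each array left out in turn it was higher by 0.14 to 0.24, the lowest without control 1.

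Sox2 (probe set 10814847), the stem and progenitor factor, had the smallest change of the 8 members. It was at a log2 expression of 9.94, 10.09 and 9.96 in control and 10.04, 9.96 and 10.02 in fibrinogen arrays. The groups overlapped, with control 2 the highest array of all. Its log2 fold change was 0.01 (SE 0.08), and the 95% interval of the fold ratio was 0.888 to 1.14 (limma adjusted p = 0.961). The sign of this change turned with the scaling of the arrays, to -0.037 with each array centred on its median.

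**Figure D3:**
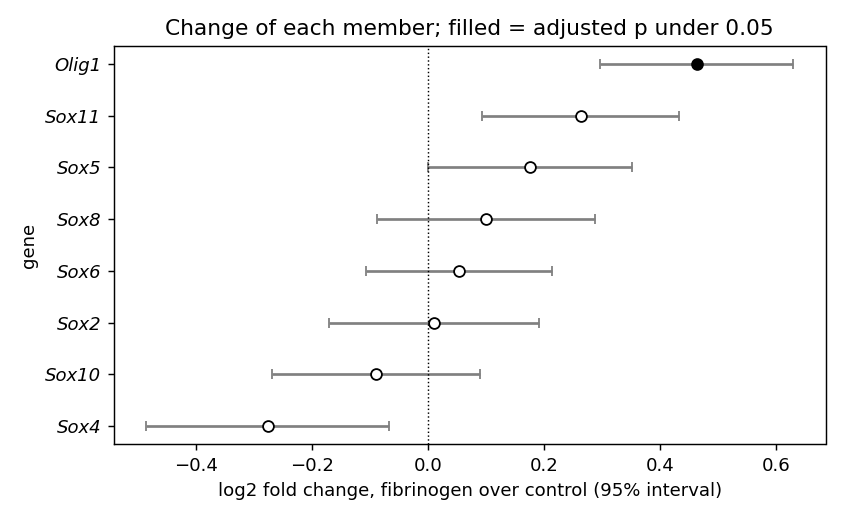
Log2 fold change of fibrinogen over control (horizontal axis) for each of the 8 members, with the 95% interval from limma; the filled point passed an adjusted p of 0.05. Olig1, at 0.46, is the filled point, and the intervals of Sox2, Sox6, Sox8 and Sox10 include 0.

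The other genes of the lineage program were given by lists. Of 12 other Sox genes 7 were measured, and 0 of the 7 passed in limma, with 0 at an unadjusted p under 0.05 as well as 0 adjusted calls with trend and robust moderation. Of these 7, 5 lay below the median probe in all control arrays. Sox12, the third group C gene, was at 7.96, 7.92 and 7.98 in control and 8.02, 7.97 and 7.80 in fibrinogen arrays, a log2 fold change of -0.02. Sox9, Olig2, Nkx2-2, Myrf and Tcf7l2, which are central to the lineage, had no valued probe of a single symbol and were not analysed here.

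Of 23 measured lineage transcription factors outside the OLIG1 and SOX members, 7 rose, 1 fell and 15 did not pass, that is 34.8% called against 7.16% of all genes. Their median log2 fold change was 0.14, against 0.003 over all genes. Of the 23, 4 lay below the median probe in all control arrays, against 5507 of the 13355 genes. This list and those below were chosen with earlier results of these data known, so the shares called are no independent test. Nfix and Nfia, nuclear factor I genes that act in gliogenesis, rose by 0.96 and 0.63 on the log2 scale. The Notch and BMP effector Hes1, the homeobox gene Prrx1 and the ETS factor gene Etv5 rose by 1.06, 0.80 and 0.90 on that scale (limma adjusted p = 0.00272, 0.00346 and 0.00411). The rises of Nfia, Myt1, a zinc-finger gene of progenitors, and Klf9 are named after their values were seen. Nkx6-2, a homeobox gene of maturing oligodendrocytes and also named afterwards, was the fall. It went from 6.61, 6.46 and 6.43 in control to 5.66, 5.90 and 5.54 in fibrinogen arrays (log2 fold change -0.80, SE 0.11, limma adjusted p = 0.00814). Leaving out any single array removed the Klf9 call (adjusted p = 0.0616 to 0.159). That of Nkx6-2 was lost with unmoderated statistics (adjusted p = 0.0588).

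Genes known to depend on SOX10 changed in both directions. Of 12 measured genes of that list, 2 rose, 6 fell and 4 did not pass, that is 66.7% called against 7.16% of all genes. The rises were the progenitor genes Cspg4 and Pdgfra, at log2 fold changes of 0.63 and 0.58. The falls with the smallest p were Ugt8, the galactolipid synthase gene of myelin, at -0.81 and Mag, a myelin adhesion protein gene, at -0.63. The others were Mbp, Cnp, Dusp15 and Mitf. A further probe set of Mbp stood at -0.32 and did not pass (adjusted p = 0.213), and with the mean of both probes the Mbp call was lost (adjusted p = 0.0807). Without any one array 4 or 5 genes of the list were called. The Mbp, Cnp and Dusp15 calls were lost whichever array was left out (limma adjusted p up to 0.156, 0.143 and 0.121). That of Mitf was kept only without fibrinogen 1 (limma adjusted p = 0.0358). The Pdgfra call was lost without fibrinogen 1 (adjusted p = 0.0504), and Cspg4, Mag and Ugt8 kept theirs without any one array. Several of these genes are also myelin or progenitor markers, so the list restates those shifts and is no independent measure of SOX10.

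Of the 6 genes linked to SOX4 and SOX11, all measured, 2 rose and 4 did not pass, that is 33.3% called against 7.16% of all genes. Stmn2 and Stmn1, stathmins that act on microtubules, rose by 0.38 and 0.31 on the log2 scale (limma adjusted p = 0.0297 and 0.0469). Tubb3, the neuronal tubulin gene, was at 9.41, 9.51 and 9.29 in control and 9.13, 9.10 and 9.21 in fibrinogen arrays. Its log2 fold change of -0.26 did not pass (limma adjusted p = 0.135). Tead2 had the largest change of the list, a log2 fold change of 0.44, which did not pass either (limma adjusted p = 0.0830). Tead2 lay below the median probe in all control arrays. It was the gene of the list that passed without control 3, where both stathmin genes did not. Dcx and Map2, both at -0.07, did not pass. Leaving out any single array removed the calls of both stathmin genes (adjusted p up to 0.149 for Stmn1 and 0.108 for Stmn2). So did quantile normalization repeated on the deposited values (adjusted p = 0.0691 and 0.0531). Neuron markers changed both ways, with 2 of 11 higher and 2 lower, and their mean level was 7.61 to 7.74 in control and 7.57 to 7.64 in fibrinogen arrays. Tubb3, Dcx, Map2 and Stmn2 are on both lists, and Stmn2 is among the neuron markers that rose. The neuron markers are thus no independent comparison for the SOX4 and SOX11 list.

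**Figure D4:**
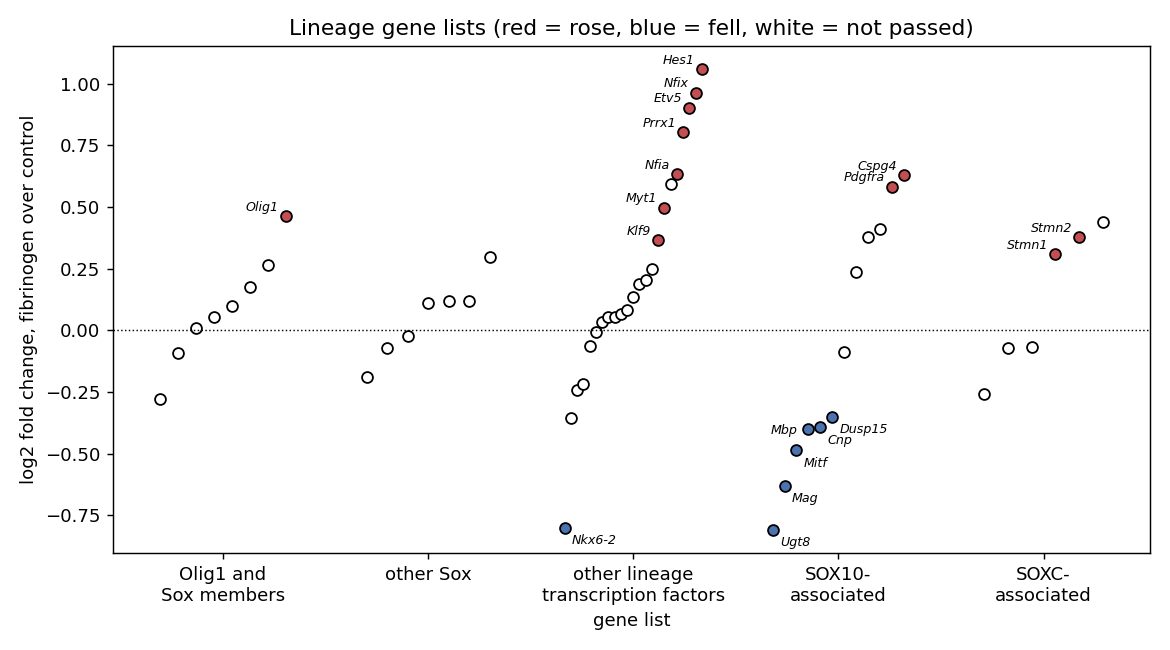
Log2 fold change of fibrinogen over control (vertical axis) for each measured gene of 5 lists, with genes that rose in red, genes that fell in blue and genes that did not pass in white. Olig1 is the coloured member, no other Sox gene is coloured, and the SOX10-associated genes lie on both sides of 0.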

How the data were processed

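Log2 expression values were deposited by the authors, 1 per probe set and array. The submitters' processing notes list RMA and limma, while their versions, the settings and the build are not given in the sources used here. On the array there are 26312 probe rows, and 23631 of them had a value on all 6 arrays. Probes were named from the platform annotation. The 14083 valued probes with 1 symbol gave 13355 genes, each represented by its probe of highest mean, and 462 of them had more than 1 probe. The members and lists were chosen with earlier results of these data known.

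Fibrinogen and control were compared in limma 3.58.1 under R 4.3.3 by a two-sided moderated test (lmFit, then eBayes) that had no covariates and kept dim probes. The script was checked on simulated data. P-values were adjusted by Benjamini-Hochberg over all 13355 genes, with a threshold of 0.05. Intervals are 95%. A gene rose or fell where it passed. Paralog differences used a two-sided exact permutation test. Named genes were the members, up to 4 called genes of smallest p per lineage list and a few central lineage genes whatever their values. The 2 nearest patterns of a called member and all genes of the SOX4 and SOX11 list were named too. Of the marker lists, counts and a few names are given. The 14 alternatives were median centring, repeated quantile normalization, leaving out the dimmest 25% of probes, the mean of a gene's probes, unmoderated statistics, trend and robust moderation, array weights, a replicate block, and leaving out each of the 6 arrays. No detection call was used, and the number of arrays limits the precision.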

Additional observations from a re-analysis of the deposited data

How the results depend on the processing

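The count of called genes over the arrays, 956, was 500 with unmoderated statistics, 1617 with trend and robust moderation and 358 to 592 without any one array. The member count, 1, was 2 without the dimmest 25% of probes (Olig1 and Sox11), where 11.7% of the genes tested were called, 3 with trend and robust moderation (Olig1, Sox4 and Sox11) and 0 to 1 without any one array. SOX10-associated calls, 8, were 5 with unmoderated statistics and 4 to 5 without any one array. SOX4- and SOX11-associated calls, 2, were 1 with median centring, 3 with trend and robust moderation, 0 with quantile normalization repeated (4 at an unadjusted p under 0.05 in limma) and 0 to 1 without any one array. The Sox2 change turned to -0.037 with median centring and to -0.005 with quantile normalization repeated, and ran from -0.018 to 0.057 without any one array. The signs of the other 7 members and of the 3 pair differences held in every alternative run for them. Pairing of the samples by replicate number was not borne out: the deviations of control and fibrinogen arrays of the same number correlated at 0.02, -0.14 and -0.07 across genes. With the replicate block, 343 genes, 0 members (3 at an unadjusted p under 0.05, in limma), 3 SOX10-associated genes and 0 SOX4- and SOX11-associated genes (4 unadjusted) were called, and Olig1 was at adjusted p = 0.0587. The cause of these changes was not tested. No detection calls were used, so the background level of dim probes is unknown.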

Other observations

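Genes of the wider helix-loop-helix family of OLIG1, Id1 and Id3 included, were described by a list added after the member values were seen. Genes of that family already counted among the lineage transcription factors were left out of it, among them Hes1, which rose by 1.06 on the log2 scale. Of 70 listed genes 58 were measured, of which 4 rose, 1 fell and 53 did not pass, that is 8.62% called against 7.16% of all genes. Their median log2 fold change was -0.02. Bhlhe41, a repressor of the circadian clock, rose by 0.74 on the log2 scale (SE 0.13, limma adjusted p = 0.0169), from a mean of 5.72 to 6.46. Hif1a, the oxygen-regulated factor, rose by 0.47 (SE 0.07, limma adjusted p = 0.0110), from a mean of 9.73 to 10.20. The other rises were Id1 and Hey1, and the fall was Mitf, at -0.49 (limma adjusted p = 0.0256), which is also on the SOX10 list. Myc and Mycn, growth regulators, were at -0.20 and 0.33 and did not pass (limma adjusted p = 0.198 and 0.199). The Bhlhe41 call was lost without any one fibrinogen array (highest adjusted p = 0.0744), and that of Hif1a without fibrinogen 1 or fibrinogen 2 (adjusted p = 0.0542 and 0.0539). Leaving out any array except fibrinogen 1 removed the Mitf call (adjusted p up to 0.0938). Leaving out fibrinogen 3 removed that of Id1 (adjusted p = 0.0539), and any array except control 1 that of Hey1 (adjusted p up to 0.110).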
